A study of Mus musculus with 18 samples.

Results

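The levels of the microRNAs miR-221 and miR-222 were followed through the development of ultraviolet (UVR)-driven skin tumours in mice. The members were the 3 entries mmu-miR-221-3p, mmu-miR-221-5p and mmu-miR-222-3p of a table of 1251 microRNA entries, chosen by name as the pair known to act on the cell cycle inhibitor p27 and the receptor Kit. Small RNA was sequenced from 18 samples of 6 female SKH-1E Hairless littermates, an outbred strain that lacks the hairless gene and develops tumours readily under UVR. Every mouse had been irradiated by solar simulator on Mondays, Wednesdays and Fridays over a period of months from young adult age. Tissue was taken after irradiation had stopped. Each mouse gave 1 sample of chronically irradiated non-lesional skin (CHR), 1 papilloma (PAP) and 1 cutaneous squamous cell carcinoma (SCC in the labels, cuSCC below), so each sample type had 6 libraries. No unirradiated skin was analysed here, and CHR carried the same irradiation as the tumours. The samples are pieces of bulk tissue that hold keratinocytes together with stroma, vessels and immune cells.

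MicroRNAs are short RNAs cut from hairpin transcripts, and they guide silencing complexes to messenger RNAs that pair with the seed, bases 2 to 8 of the microRNA. Each hairpin has a 5p and a 3p arm, and usually 1 of them accumulates. MiR-221 and miR-222 are made from neighbouring hairpins and share a seed. They are known for repressing p27 (Cdkn1b), which holds cells out of the cycle, and Kit, the stem cell factor receptor of melanocytes, mast cells and blood progenitors, and they are often discussed as growth-promoting in cancers and as present in vessel walls.

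The 3 members are printed to show what they share, with the seed in capitals. The sequences are those of RefSeq on GRCm38.p6, 5′ to 3′. The 2 arms that share a seed come first, and miR-1928, which carries the same seed, comes last.
mmu-miR-222-3p: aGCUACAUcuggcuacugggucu
mmu-miR-221-3p: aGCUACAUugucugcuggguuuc
mmu-miR-221-5p: aCCUGGCAuacaauguagauuucugu
mmu-miR-1928: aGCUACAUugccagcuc
MiR-221-3p and miR-222-3p were both 23 bases long, with the first 8 bases identical and 11 of 23 positions identical over the whole length. The 5p arm of miR-221 has another seed, and no other entry matched to a sequence shared it. Sequences were found for 1001 of the 1251 entries and for 241 of the 293 tested.

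Both hairpins lie on the minus strand of chromosome X in GRCm38, Mir222 from 19146893 to 19146971 and Mir221 from 19146294 to 19146388, with 504 bases between them. Mature miR-222-3p lies at 19146901 to 19146923, miR-221-3p at 19146307 to 19146329 and miR-221-5p at 19146344 to 19146369. The annotation gives no gene other than the hairpins themselves across their 678 bases, neither exon nor intron of a longer transcript. The nearest other gene was Gm14636, a processed transcript on the same strand, 10010 bases away.

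The sites that link the pair to its best known targets are printed because p27 and Kit were the reason for choosing it. The 3′ untranslated regions of the GENCODE annotation were searched on the transcript strand for ATGTAGC, the reverse complement of seed bases 2 to 8, given in capitals. Cdkn1b held 1 match in 3439 bases, at chr6:134924413-134924442 on the plus strand. Kit held 2 in 2177 bases, at chr5:75654974-75655003 and chr5:75656505-75656534 on the plus strand.
Cdkn1b: tgcctctaaaagcattggATGTAGCattgc
Kit, first site: cttaatgatgggagatatATGTAGCaagac
Kit, second site: ttttttgtaaatattgaaATGTAGCaataa
Such a match was present in 9.42% of all 21004 untranslated regions, in 23.3% of those within 10% of the length of that of Cdkn1b and in 15.0% of those within 10% of that of Kit. A match is a description of the sequence, and the messenger RNAs of Cdkn1b and Kit were not analysed here.

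Levels are given as deposited, as log2 of ppm (the share of a library's usable reads) after quantile normalisation, and an undetected microRNA stands at 3.32, the log2 of 10 ppm. The number of microRNAs above that value ran from 200 to 328 for CHR, from 163 to 281 for PAP and from 236 to 365 for cuSCC. The reads behind single values are not given, so the depth is unknown and no counting interval could be set. Over the 293 microRNAs detected in at least 6 libraries, the cuSCC of mouse 10 was nearest in profile to the PAP of its own mouse (Pearson r = 0.63 over 293 microRNAs, after centring each microRNA on its mean). It resembled PAP more widely, with a mean r of 0.41 with the PAP libraries and -0.12 with the other cuSCC libraries. The PAP of mice 2, 3 and 9 also had it as their nearest library. Several of the members' comparisons of cuSCC are also given without the cuSCC of mouse 10. The median difference of all 293 was -0.23 for PAP minus CHR, 0.11 for cuSCC minus CHR and 0.21 for cuSCC minus PAP on the log2 scale.

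The 3 members were far apart in level. MiR-222-3p stood highest, among the 17th to 23rd most abundant entries in CHR, the 28th to 47th in PAP and the 24th to 42nd in cuSCC. MiR-221-3p ranked between 44th and 70th across the 18 libraries, and miR-221-5p, the less abundant arm of its hairpin, between 82nd and 151st. The remaining arm, miR-222-5p, was above the lowest value in 4 libraries only, at 4.10 in CHR of mouse 9, 3.70 in CHR of mouse 10, 3.42 in cuSCC of mouse 2 and 4.76 in cuSCC of mouse 9, and was not tested. MiR-1928 was listed at the lowest value in all 18 libraries, so the shared seed was carried by miR-222-3p and miR-221-3p among the entries matched to a sequence.

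MiR-222-3p was lower in both kinds of tumour than in CHR. In CHR it lay between 14.22 and 15.03 with a median of 14.78 (mean 14.70 ± 0.27, SD, n = 6). In PAP it lay between 12.12 and 13.55 with a median of 13.14 (13.02 ± 0.57, SD, n = 6), and in cuSCC between 12.44 and 14.03 with a median of 13.19 (13.24 ± 0.61, SD, n = 6). Every CHR library stood above every tumour library, with the gap narrowest at the cuSCC of mouse 9, while PAP and cuSCC overlapped over most of their range.

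The difference of PAP from CHR was -1.67 for miR-222-3p (SE 0.29, 95% interval -2.29 to -1.05, adjusted p = 0.000677 by limma with Benjamini-Hochberg adjustment over 293 microRNAs), a level 3.19-fold lower. It was lower in 6 of 6 mice, with differences within a mouse from -2.65 in mouse 10 to -0.89 in mouse 8. In this comparison 18.4% of the tested microRNAs were called lower and 14.0% higher, together 32.4%, and 2 of the 3 members were called lower. The share of microRNAs with every PAP library below every CHR library was 9.56%, and miR-222-3p was the only member among them. By size of decrease 46 of the 293 microRNAs fell further. Of the 45 with a mean level over 12 across all 18 libraries, 2 had a larger decrease. That mean includes the tumours, so a microRNA that fell far could drop out of the 45. MiR-342-3p, miR-145a-5p and miR-150-5p, for example, stood over 12 in CHR, at 12.45, 12.34 and 12.45. They fell further, with differences of -3.66, -2.83 and -2.62. An exact two-sided permutation test over the 12 libraries gave p = 0.00216, the smallest that 6 against 6 libraries allow.

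The cuSCC libraries differed from CHR by -1.45 for miR-222-3p (SE 0.31, 95% interval -2.11 to -0.79, limma adjusted p = 0.00233), a level 2.74-fold lower, again in 6 of 6 mice. Here 22.2% of the tested microRNAs were called lower and 20.1% higher, together 42.3%, and 1 of the 3 members was called. Every cuSCC library lay below every CHR library for 10.6% of the tested microRNAs, miR-222-3p among them. Of the 45 microRNAs with a mean level over 12 across all 18 libraries, 1 decreased further than miR-222-3p. MiR-342-3p, miR-150-5p and miR-145a-5p, for example, stood over 12 in CHR but not in that mean. They also fell further, with differences of -2.86, -2.33 and -1.78. Without the cuSCC of mouse 10 the difference was -1.37 (limma adjusted p = 0.00378). Fewer cells of a type that carries a microRNA and less of it per cell cannot be told apart in bulk tissue.

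**Figure D1:**
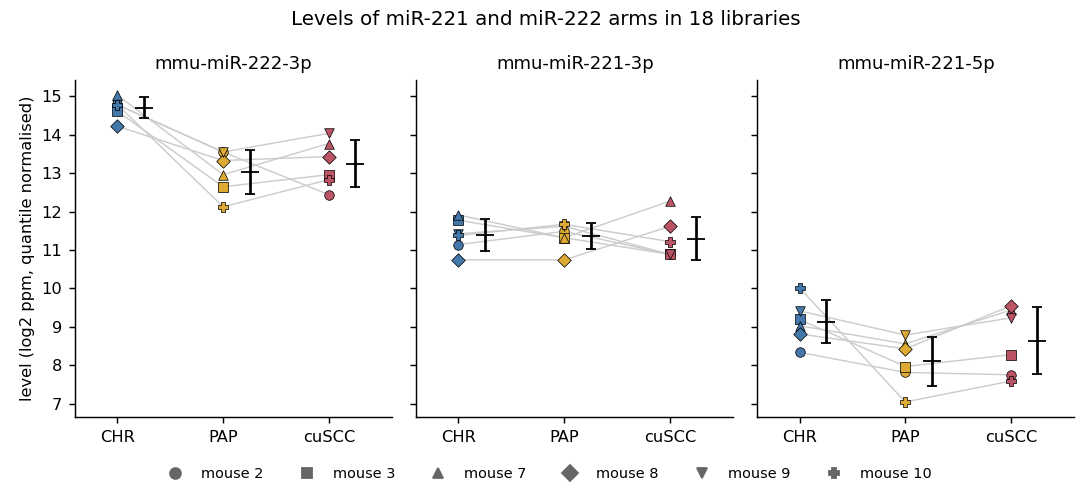
Level of each arm (y axis, log2 ppm, quantile normalised) in CHR, PAP and cuSCC (x axis), 1 symbol per mouse with grey lines joining the samples of 1 mouse, and the mean with SD of 6 libraries beside them in black. MiR-222-3p sits between 14.22 and 15.03 in CHR and at 14.03 or lower in every tumour, whereas miR-221-3p stays between 10.74 and 12.27 in all 3 sample types.

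MiR-221-3p, which has the same seed and lies on the neighbouring hairpin, did not pass the test in any comparison. It ranged from 10.74 to 11.91 in CHR (median 11.40, mean 11.40 ± 0.42, SD, n = 6), from 10.74 to 11.67 in PAP (median 11.40, mean 11.36 ± 0.33) and from 10.89 to 12.27 in cuSCC (median 11.05, mean 11.29 ± 0.56). The 3 sample types overlapped almost completely, and the highest library of all was the cuSCC of mouse 7. The difference of PAP from CHR was -0.04 (SE 0.26, 95% interval -0.60 to 0.53, limma adjusted p = 0.930) and that of cuSCC from CHR was -0.10 (SE 0.32, 95% interval -0.78 to 0.58, limma adjusted p = 0.820). Both intervals leave room for changes of either sign, and in cuSCC the lower end of the interval all but met the upper end of that of miR-222-3p, at -0.79. Between cuSCC and PAP the difference was -0.06 (SE 0.30, 95% interval -0.72 to 0.59, limma adjusted p = 0.875).

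MiR-221-5p, cut from the same hairpin as miR-221-3p, lay between 8.34 and 10.02 in CHR (median 9.11, mean 9.14 ± 0.57, SD, n = 6). It lay between 7.05 and 8.79 in PAP (median 8.20, mean 8.10 ± 0.63, SD, n = 6) and between 7.59 and 9.55 in cuSCC (median 8.76, mean 8.64 ± 0.87, SD, n = 6). The PAP values were lower than those of CHR in 6 of 6 mice, yet the groups overlapped, with 3 of the 6 PAP libraries below every CHR library. The cuSCC libraries fell apart into 3 at 9.24 or higher, from mice 7, 8 and 9, and 3 at 8.28 or lower, from mice 2, 3 and 10.

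The difference of PAP from CHR for miR-221-5p was -1.03 (SE 0.35, 95% interval -1.80 to -0.27, limma adjusted p = 0.0412), 2.05-fold lower. With mouse as a block, which compares samples paired by mouse, the adjusted p was 0.0922 and the call was lost. It was lost as well when any 1 mouse was left out, with adjusted p-values of 0.0518 to 0.131, and without mouse 10 the difference shrank to -0.65. Without the PAP of mouse 10 alone, the library with the fewest microRNAs detected, it was -0.82 (limma adjusted p = 0.0768). In that library miR-221-5p stood at 7.05, near the lowest detected value of 6.83. The cuSCC libraries differed from CHR by -0.49 (SE 0.41, 95% interval -1.37 to 0.39, limma adjusted p = 0.338), lower in 4 of 6 mice, and this value shrank to -0.28 without the cuSCC of mouse 10 and to -0.11 without mouse 10.

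No member passed the test between cuSCC and PAP, where 11.6% of the tested microRNAs were called, 9.22% higher and 2.39% lower. MiR-222-3p differed by 0.22 (SE 0.35, 95% interval -0.55 to 0.99, limma adjusted p = 0.733), and it was higher in the cuSCC than in the PAP of 5 mice, with mouse 2 at -1.11. Leaving out single mice or libraries moved this value between 0.04, without the PAP of mouse 10, and 0.48, without mouse 2. MiR-221-5p differed by 0.54 (SE 0.43, 95% interval -0.40 to 1.48, limma adjusted p = 0.426), or 0.75 without the cuSCC and 0.33 without the PAP of mouse 10. These intervals do not show that the tumour types were alike, as an increase close to 2-fold for miR-222-3p lies inside its interval.

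**Figure D2:**
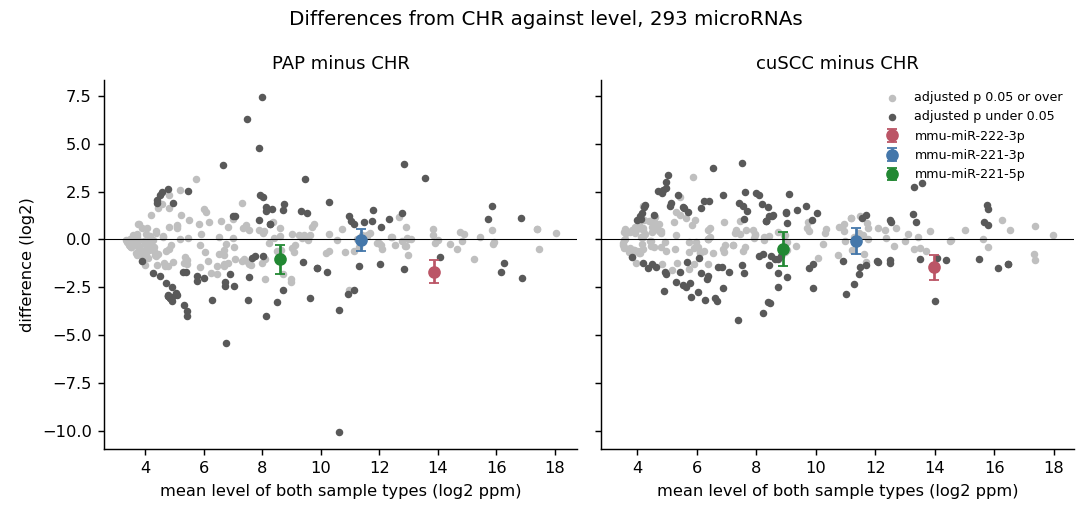
Difference from CHR (y axis, log2) against mean level of the sample types compared (x axis, log2 ppm) for 293 tested microRNAs, in PAP on the left and cuSCC on the right, with dark points for an adjusted p under 0.05. Coloured points with 95% intervals are the members. MiR-222-3p at -1.67 and -1.45 stands low among microRNAs of a similar mean level, while miR-221-3p at -0.04 and -0.10 lies near the line of no difference.

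Whether the arms moved unequally was tested on their difference within each library. A scale factor common to the library cancels in it, but quantile normalisation sets each value by its rank in the library. The differences are therefore distances on the distribution that all libraries share. Capture into a library can differ between microRNAs, so these differences are not molar ratios, and only their change between sample types was compared. In CHR, miR-222-3p stood above miR-221-3p by 2.83 to 3.63 (mean 3.30, SD 0.28, n = 6), which is 9.86 times its level. In PAP the gap was 0.45 to 2.58 (mean 1.67, SD 0.73), or 3.17 times, and in cuSCC 1.497 to 3.15 (mean 1.95, SD 0.62), or 3.86 times. The widest PAP gap, in mouse 8, was smaller than the narrowest CHR gap, in mouse 3. Of the cuSCC libraries, 5 of 6 lay below every CHR library and that of mouse 9, at 3.15, lay within the CHR range.

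The gap between miR-222-3p and miR-221-3p narrowed by 1.64 from CHR to PAP (exact two-sided permutation p = 0.00216, adjusted p = 0.0130 over 6 such tests), in 6 of 6 mice. From CHR to cuSCC it narrowed by 1.35 (exact permutation p = 0.00649, adjusted p = 0.0195), again in 6 of 6 mice, and by 1.29 without the cuSCC of mouse 10. The 2 arms with a common seed therefore changed unequally in both kinds of tumour. Between cuSCC and PAP the mean of miR-221-3p minus miR-222-3p changed by -0.28 (exact permutation p = 0.491), or by -0.35 without the cuSCC of mouse 10.

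The arms of the miR-221 hairpin were compared in the same way. MiR-221-3p exceeded miR-221-5p by 1.36 to 2.88 in CHR (mean 2.26, SD 0.59, n = 6), by 2.31 to 4.62 in PAP (mean 3.25, SD 0.82) and by 1.65 to 3.62 in cuSCC (mean 2.65, SD 0.71). The highest PAP and cuSCC values both came from mouse 10, whose CHR was the lowest. In the PAP of mouse 10 miR-221-5p stood at 7.05, near the lowest detected value of that library, 6.83. The PAP mean was 0.997 higher than that of CHR (exact permutation p = 0.0346), but the adjusted p of 0.0693 missed the threshold. Without mouse 10 it was 0.54 higher. The change of cuSCC from CHR was 0.39 (exact permutation p = 0.312), or 0.20 without the cuSCC of mouse 10 and 0.02 without mouse 10. That of cuSCC from PAP was -0.60 (exact permutation p = 0.212), or -0.80 without the cuSCC of mouse 10.

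**Figure D3:**
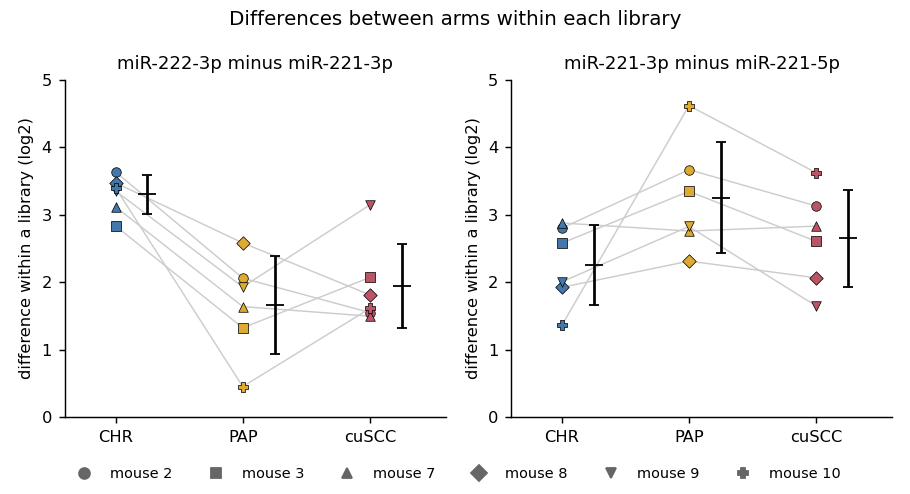
Difference in log2 level within each library (y axis) between miR-222-3p and miR-221-3p on the left, and between miR-221-3p and miR-221-5p on the right, by sample type (x axis), with 1 symbol per mouse and the mean with SD in black. The gap on the left averages 3.30 in CHR, 1.67 in PAP and 1.95 in cuSCC, and the cuSCC of mouse 9 stands apart at 3.15.

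The shared seed was summed over miR-221-3p and miR-222-3p on the ppm scale to describe how much of it each library held. On the log2 scale the sum lay between 14.34 and 15.18 in CHR (median 14.90), between 12.91 and 13.88 in PAP (median 13.45) and between 12.86 and 14.21 in cuSCC (median 13.53), without overlap between CHR and either tumour type. MiR-222-3p made up 87.7% to 92.5% of the sum in CHR, with a median of 91.2%. Its share was 57.8% to 85.7% in PAP (median 77.5%) and 73.8% to 89.9% in cuSCC (median 76.6%). The cuSCC of mouse 9 alone of the tumours reached into the CHR range of this share.

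How the arms varied together within sample types is given as a description. Over the 18 libraries, each centred on the mean of its sample type, miR-221-5p and miR-222-3p had a Pearson r of 0.70 and a Spearman rho of 0.69. The r was 0.29 for miR-221-3p with miR-221-5p and 0.27 for miR-221-3p with miR-222-3p. Within single sample types of 6 libraries these values differed in size and sign. For miR-221-5p with miR-222-3p the r was 0.19 in CHR, 0.72 in PAP and 0.87 in cuSCC. For miR-221-3p with miR-222-3p it was 0.75 in CHR, -0.26 in PAP and 0.43 in cuSCC, and for both arms of miR-221 it was 0.31, -0.38 and 0.58. The libraries come from 6 mice, 3 from each, and share a normalisation.

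The entries most like each member were chosen by Pearson r over the 18 libraries, without centring, so differences between sample types entered the choice. Most like miR-222-3p were miR-1249-3p (r = 0.89), miR-150-5p (0.88), miR-181a-2-3p (0.86), miR-351-5p (0.85) and miR-145a-5p (0.85). Their differences of PAP from CHR ran from -1.26 for miR-351-5p to -4.01 for miR-181a-2-3p, which follows in part from that choice. MiR-150-5p is known from lymphocytes and miR-145a-5p from smooth muscle, but other markers listed below for leukocytes and smooth muscle did not all fall with them. MiR-143-3p of smooth muscle differed from CHR by -1.53 in PAP (limma adjusted p = 0.0125) but by 0.45 in cuSCC (limma adjusted p = 0.415). The leukocyte marker miR-142-5p was higher in cuSCC than in CHR, by 1.53 (limma adjusted p = 0.0132). Most like miR-221-5p were miR-184-3p (0.78), miR-146b-5p (0.78), miR-145a-5p (0.77), miR-191-5p (0.76) and miR-222-3p itself (0.73). For miR-221-3p the highest values were miR-532-5p (0.69), miR-30b-5p (0.53), miR-500-3p (0.39), miR-148b-3p (0.39) and miR-140-3p (0.37).

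Other microRNAs known to act on p27 or Kit were taken as a list of 10, of which 6 were tested and 2, miR-137-3p and miR-494-3p, were listed at the lowest value in every library. In PAP against CHR, 2 of the 6 were lower and 1 was higher, beside 18.4% and 14.0% of all tested microRNAs, with a median of -0.84 beside -0.23 over all. MiR-181a-5p, directed at p27, fell by 2.01 (SE 0.56, limma adjusted p = 0.0189), and miR-196a-5p, also directed at p27, fell by 2.88 (SE 0.49, limma adjusted p = 0.000641). The latter was detected in 6 of 6 CHR libraries but in 1 of 6 PAP libraries, so the size of its fall depends on the lowest value. MiR-24-3p, directed at p27, rose by 0.83 (SE 0.30, limma adjusted p = 0.0497). In cuSCC against CHR 1 was lower and 1 higher, beside 22.2% and 20.1% of all tested, with a median of -0.32 beside 0.11. MiR-193b-3p, directed at Kit, fell by 1.46 (SE 0.37, limma adjusted p = 0.00702), and miR-148a-3p, directed at p27, rose by 1.03 (SE 0.36, limma adjusted p = 0.0335). MiR-34a-5p, directed at Kit, and miR-148a-3p were higher in cuSCC than in PAP, by 2.14 (limma adjusted p = 0.0383) and 1.19 (limma adjusted p = 0.0394), and none was lower, beside 9.22% and 2.39% of all tested. Exact permutation tests over libraries called 0 microRNAs in this comparison, these included. Before adjustment over the 293 their p cannot fall below 0.00216, and only 4 microRNAs had cuSCC and PAP libraries without overlap. The exact tests therefore cannot decide whether these limma calls hold. With mouse 3, 7 or 8 left out, limma called 1 microRNA in this comparison, so the calls of miR-34a-5p and miR-148a-3p did not both hold. MiR-34a-5p was detected in 2 of 6 PAP libraries.

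**Figure D4:**
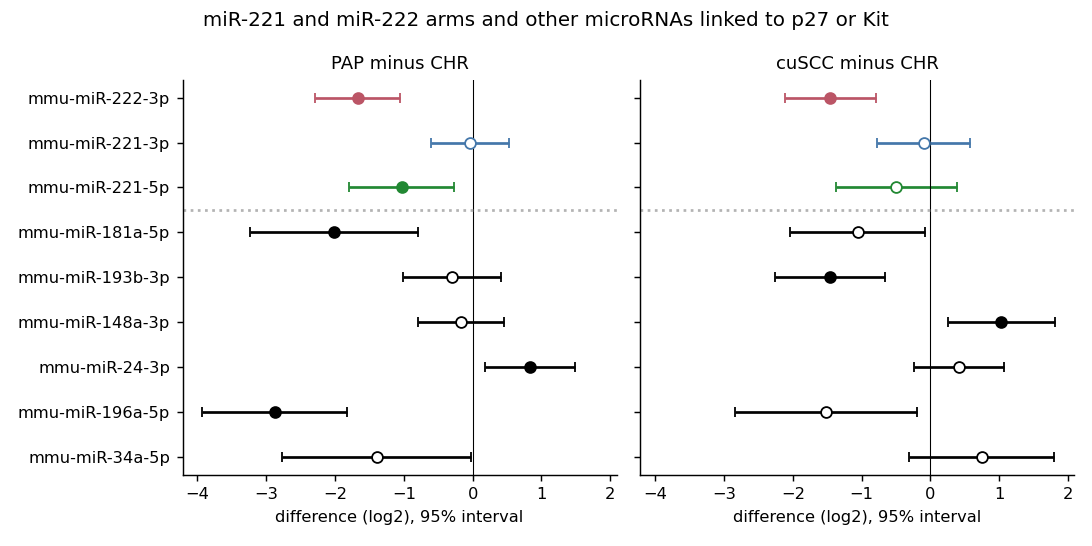
Difference from CHR (x axis, log2) with its 95% interval for the members, above the dotted line, and the 6 tested microRNAs of the p27 and Kit list below it, in PAP on the left and cuSCC on the right. Filled points passed an adjusted p of 0.05, which miR-222-3p does in both panels, miR-221-5p in PAP and miR-221-3p in neither.

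MicroRNAs taken as markers of other cell types are given beside miR-222-3p as sums and as counts of tested members called, with no test of a list as a whole. Against CHR, 18.4% of all tested microRNAs were called lower and 14.0% higher in PAP, and 22.2% lower and 20.1% higher in cuSCC, and a count of 1 or 2 in a short list is to be read against these shares. The summed leukocyte markers ran from 13.12 to 14.28 in CHR on the log2 scale, from 9.03 to 11.82 in PAP and from 11.13 to 12.59 in cuSCC. Of the 4 tested, 2 were lower in PAP, and 2 were lower and 1 higher in cuSCC. MiR-150-5p fell by 2.62 in PAP (limma adjusted p = 0.000641) and miR-342-3p by 3.66 (limma adjusted p = 0.0248), whereas miR-142-5p was higher in cuSCC than in CHR by 1.53 (limma adjusted p = 0.0132). The skeletal muscle sum was 15.44 to 15.98 in CHR, against 5.32 to 12.45 in PAP and 6.04 to 14.24 in cuSCC, with 3 of 3 tested lower in PAP and 1 of 3 in cuSCC, but miR-1a-3p was at the lowest value in all CHR and PAP libraries. In PAP, miR-133b-3p and miR-206-3p were detected in 0 of 6 libraries and miR-133a-3p in 3, so the lowest sums stand for undetected entries. The pair linked to melanocytes and retina, miR-204-5p and miR-211-5p, summed to between 9.38 and 10.05 in CHR, between 4.32 and 9.57 in PAP and between 4.85 and 8.81 in cuSCC, with 1 of 2 lower in PAP and 2 of 2 in cuSCC. In PAP, miR-204-5p was detected in 2 of 6 libraries and miR-211-5p in 4.

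The smooth muscle sum lay between 13.72 and 14.66 in CHR, between 10.89 and 13.33 in PAP and between 12.23 and 15.09 in cuSCC, with 2 of 3 tested lower in PAP and 1 of 3 in cuSCC. Fibroblast markers summed to at least 12.72 and at most 13.13 in CHR, to 7.72 and 12.71 at the extremes in PAP and to 10.17 and 13.65 in cuSCC, with 2 of 5 lower in PAP and 0 of 5 called in cuSCC. The endothelial markers, miR-126-3p and miR-126-5p, summed to 7.84 to 9.35 in CHR and 7.61 to 9.004 in PAP, where neither was called. In cuSCC they summed to 9.26 to 11.17, and both were higher than in CHR while miR-222-3p was lower. Of the 2 erythroid markers tested, 1 was higher in PAP, and 1 was higher and 1 lower in cuSCC, at sums between 16.69 and 17.84 in CHR, 16.70 and 18.24 in PAP, and 14.87 and 17.87 in cuSCC, with miR-144-3p at the lowest value throughout. The part of these cell types in the decrease of miR-222-3p was not tested.

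The epithelial list describes the tissue, and it does not test the labels CHR, PAP and cuSCC. MiR-205-5p, the abundant microRNA of squamous epithelium, averaged 17.87 in CHR, 18.22 in PAP and 18.08 in cuSCC. The 7 epithelial markers summed to between 17.50 and 18.51 in CHR, 17.77 and 18.55 in PAP, and 17.50 and 18.54 in cuSCC. Against CHR, 4 were higher in PAP and 3 in cuSCC with none lower, beside 14.0% and 20.1% of all tested microRNAs called higher.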

How the data were processed

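Small RNA libraries of CHR, PAP and cuSCC from 6 mice were used, 18 in all. MicroRNA abundance was given by the authors in ppm of usable reads, counted from BLAST hits to miRBase after filters on read length and homopolymer ends. The deposited values are log2 of that ppm. Their quantile normalisation and their lowest value of 3.32 (10 ppm) were read from the values themselves. The genome build in the submitters' processing notes is mm10, and versions of miRBase and BLAST are not given in the sources used here. Normalisation to a common distribution makes every value relative to the other microRNAs of its library. BLAST hits among near-identical microRNAs can be split between entries.

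The 293 entries detected, that is above this value, in 6 or more of 18 libraries were compared between sample types using limma 3.58.1 (R 4.3.3, functions lmFit and eBayes, two-sided, 6 against 6 libraries, no block), with Benjamini-Hochberg adjustment over the 293, and called at an adjusted p under 0.05. The fit was tested on simulated data. Differences between arms were compared with exact permutation tests over libraries (scipy 1.17.1, numpy 2.4.6 and pandas 2.3.3 under Python 3.11.15), adjusted over 6 tests, and plots were drawn with matplotlib 3.10.9. No pair of libraries held identical values. The same mouse gave 1 sample of each type, so samples are paired by mouse. The deviations of same-mouse samples from their group means had a mean correlation of 0.03 for PAP with CHR, -0.07 for cuSCC with CHR and 0.06 for PAP with cuSCC.

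Named microRNAs are the members, the other arm of miR-222, entries with a member's seed, the 5 entries with the highest Pearson r to each member, entries of the same chromosome, and the lists for p27 or Kit and for endothelium, fibroblasts, smooth muscle, skeletal muscle, leukocytes, erythroid cells, melanocytes and epithelium. The members and lists were chosen with earlier results of these data known. Marker microRNAs are also expressed outside the cell types they stand for. Sequences and coordinates are those of RefSeq and GENCODE on GRCm38. Alternatives were other filters, a fit on all 18 libraries, mouse as a block, centring of each library, other lowest values, undetected values as missing, exact tests and leaving out mice. The human samples were not analysed here.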

Additional observations from a re-analysis of the deposited data

Results flagged for a closer look

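Each group of 6 libraries was examined for a highest or lowest library lying far from its neighbour relative to the range of the group, a criterion that chance meets in about 1 of 20 groups, and 15 groups were examined. Only the cuSCC of mouse 9 met it, for the difference miR-221-3p minus miR-222-3p, which was -3.15 against -2.07 for the next library. In that tumour miR-222-3p was the highest of the 6 cuSCC at 14.03 and miR-221-3p was among the lowest at 10.89. Without mouse 9, the gap between the arms narrowed by 1.58 from CHR to cuSCC (exact permutation p = 0.00794).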

How the results depend on the processing

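The decreases of miR-222-3p kept their direction and call under all 17 alternatives, at -1.83 to -1.48 in PAP (adjusted p = 0.000523 to 0.0135, the highest from exact permutation tests and the others from limma) and -1.60 to -1.28 in cuSCC (limma adjusted p = 0.00179 to 0.0142). The narrowing of its gap to miR-221-3p kept an unadjusted exact permutation p of at most 0.0238 in each alternative tested over libraries. In a sign-flip test within mice the unadjusted p was 0.0312, the smallest that 6 mice allow. Adjusted over the 6 tests, as the main results were, this sign-flip p would not stay under 0.05. The decrease of miR-221-5p in PAP stayed at -1.03 but lost its call with no filter on detection, with the fit on all 18 libraries, under the replicate block for mouse (limma adjusted p = 0.0922) and with a lowest value of 100 ppm. Leaving out a mouse or a library gave -1.16 to -0.65, and the widening of miR-221-3p minus miR-221-5p in PAP became 0.54 to 1.22. In a sign-flip test within mice, a replicate block, that widening kept 0.997 with an exact p of 0.0625. MiR-221-3p, near 0 throughout, turned to 0.0302 in PAP against CHR with centred libraries, and leaving out samples gave -0.112 to 0.0747 in PAP against CHR, -0.296 to 0.0561 in cuSCC against CHR and -0.268 to 0.0682 in cuSCC against PAP. The block changed no other call of a member. Leaving out the PAP of mouse 10 was chosen after seeing the data.

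Counts of called microRNAs moved most between cuSCC and PAP, where 34 were called. They were 2 with no filter, 80 with undetected values at the lowest detected value of the library (18 higher and 62 lower), 2 with a lowest value of 100 ppm, 22 with undetected values as missing, 0 in exact permutation tests (83 at an unadjusted limma p under 0.05), 74 at a fold of 1.5 and an unadjusted p under 0.05, and 1 to 59 without a mouse or library. With a lowest value of 100 ppm, 57 rather than 95 were called between PAP and CHR and 80 rather than 124 between cuSCC and CHR, and leaving out samples gave 55 to 79 and 77 to 131. The exact test of cuSCC against PAP cannot give a p below 0.00216 before adjustment, which limits what it can call. The cause of these movements was not tested. Unknown depth limits statements on microRNAs near the lowest value, miR-222-5p among them.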

Other observations

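Among the 241 tested entries matched to a sequence, 19 others lay on chromosome X, and none of them within 50 kb of the pair. Tested entries without a match could not be placed, so the list for the chromosome is incomplete. Of the 19 placed, 3 are also encoded elsewhere (miR-92a-3p, miR-19b-3p and let-7f-5p). Between PAP and CHR, 2 were higher and 2 lower, beside 32.4% of all tested microRNAs called, or 1 and 2 without those encoded elsewhere, with a median of 0.06 and a range from -2.05 for miR-223-3p, which did not pass the test, to 2.50 for miR-5617-3p. Between cuSCC and CHR, 5 were higher and 6 lower, beside 42.3% of all tested, or 3 and 6 without those encoded elsewhere, with a median of 0.27 and a range from -2.06 for miR-652-3p to 2.50 for miR-98-5p, a let-7 family member. Of a second cluster on the chromosome, miR-351-5p fell by 1.14 in cuSCC against CHR (limma adjusted p = 0.0132) while miR-322-5p rose by 1.90 (limma adjusted p = 0.00743), and the difference between them was not tested.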
